A study of Mus musculus with 2 samples.

Results

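The 8 genes described here, Hopx, Palld, Ptprz1, Tnc, Fam107a, Lifr, Il6st and Itgb5, are known as markers or signalling genes of basal (outer) radial glia in human cortex. They were chosen by name from that role, with earlier results of these data known. The assay was ChIP-seq (immunoprecipitated chromatin, sequenced) for H3K9me2, in which lysine 9 of histone H3 carries a pair of methyl groups. The tissue was embryonic cortex of C57BL/6 mice, taken on embryonic day 15.5. There was 1 TBC1D3-transgenic library, from 20697113 ChIP tags, and 1 wild-type library, from 26735120 ChIP tags. The promoter that drives the transgene is not given in the sources used here. A peak was assigned to a gene when it overlapped the RefSeq gene body (GRCm38.p6, the assembly that mm10 represents) extended by 2 kb on both sides. By this rule 2 of 6253 transgenic peaks and 1 of 743 wild-type peaks lay in the 8 genes, which are 8 of the 21519 coding genes used. With 1 library per genotype no test between genotypes was made, and the intervals given reflect counting error and nothing else.

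Basal radial glia are progenitors that have left the ventricular surface but keep a long basal process, and they are abundant in human cortex and rare in mouse cortex. They are known to make much of their own surroundings, through matrix proteins such as tenascin C and receptors that read them, and to respond to leukaemia inhibitory factor through LIFR and gp130 (Il6st), which activate STAT3. H3K9me2 is a mark of silenced chromatin that often covers broad domains. The peak lists hold only short, narrow calls, with a median of 6 ChIP fragments in each library. No peak had a q of 0.05 or less, so a single peak is weak evidence of the mark. A list of peaks gives no expression, so neither the tissue nor the progenitor type could be checked against marker genes.

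Palld was the member gene with a peak in both libraries, Ptprz1 had a peak in the transgenic library alone, and the other 6 genes had none in either. Of 21519 coding genes, 5.68% had a transgenic peak, 0.911% a wild-type peak and 0.525% a peak in both. The 8 genes were longer than most, with a median of 97.1 kb, where the median coding gene spans 17.4 kb. Summed over the 8 genes, the transgenic peaks numbered 2 (exact Poisson 95% interval 0.242 to 7.22), and the mean density of their own chromosomes gives 2.66. The wild-type peak was 1 (0.0253 to 5.57), and chromosome density gives 0.33. Both intervals include the number that the chromosomes give.

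Palld encodes palladin, a scaffold of actin bundles, and spans 391 kb of chromosome 8 (61511431 to 61902707, minus strand). Its transgenic peak lay at 61718275 to 61718385 and rested on 10 ChIP fragments, with a fold enrichment of 4.96 over a local background of 1.22 fragments. Only 2.13% of transgenic peaks rested on as many fragments, and the peak was 115th of 6253 by the authors' p. Its q of 0.0673 was the lowest that the list holds, but this value is tied. A transgenic peak near Tnc that was 436th by p had the same q. The wild-type peak of Palld lay elsewhere, at 61789674 to 61789769, and rested on 5 fragments, the smallest number in that list, with a fold of 3.38 and a q of 1. That peak was 698th of 743 by p. The palladin gene thus held one of the stronger transgenic peaks and one of the weakest wild-type peaks, 71.3 kb apart. A transgenic peak lay at that distance or nearer for 42.1% of all wild-type peaks, so the spacing does not set the gene apart. Of 763 coding genes of 200 to 500 kb, 41.9% had a transgenic peak, 7.99% a wild-type peak and 4.98% a peak in both.

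Palladin is made from several alternative starts, and the peaks lay between them. The RefSeq promoter table gives 3 starts, at 61902707, 61760089 and 61591139, in the order of transcription. The transgenic peak fell 41.7 kb past the second start, and the wild-type peak fell 29.6 kb before it, between the first and second starts. The promoter windows, 250 bases before to 50 after each start, are printed here as the sequences that the peaks left uncovered, 5′ to 3′ on the minus strand, with each CG dinucleotide in capitals (RefSeq, GRCm38.p6).

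Palld start 1, chr8:61902658-61902957: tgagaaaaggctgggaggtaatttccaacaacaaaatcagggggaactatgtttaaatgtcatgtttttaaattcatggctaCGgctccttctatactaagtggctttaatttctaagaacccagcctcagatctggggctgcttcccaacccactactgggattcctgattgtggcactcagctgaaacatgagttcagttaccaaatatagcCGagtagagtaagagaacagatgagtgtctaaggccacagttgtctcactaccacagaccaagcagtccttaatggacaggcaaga
Palld start 2, chr8:61760040-61760339: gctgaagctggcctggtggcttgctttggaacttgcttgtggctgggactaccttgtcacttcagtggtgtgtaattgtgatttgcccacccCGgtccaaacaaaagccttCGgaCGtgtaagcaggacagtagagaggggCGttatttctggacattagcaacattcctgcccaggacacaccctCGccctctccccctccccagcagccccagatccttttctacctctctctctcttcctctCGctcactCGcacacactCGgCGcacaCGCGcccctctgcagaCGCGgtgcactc
Palld start 3, chr8:61591090-61591389: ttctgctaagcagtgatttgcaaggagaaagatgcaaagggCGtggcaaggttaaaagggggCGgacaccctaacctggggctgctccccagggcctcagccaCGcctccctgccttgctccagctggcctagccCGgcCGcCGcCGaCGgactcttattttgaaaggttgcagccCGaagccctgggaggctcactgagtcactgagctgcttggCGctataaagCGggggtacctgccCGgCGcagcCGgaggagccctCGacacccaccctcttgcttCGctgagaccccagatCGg

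The first window holds 2 CG dinucleotides, the second 13 and the third 17, where the median over 21044 coding promoter windows is 13. The letters CG read the same on both strands. As many or more CG stood in 88.9% of coding windows for the first start, 51.4% for the second and 43.1% for the third.

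**Figure D1:**
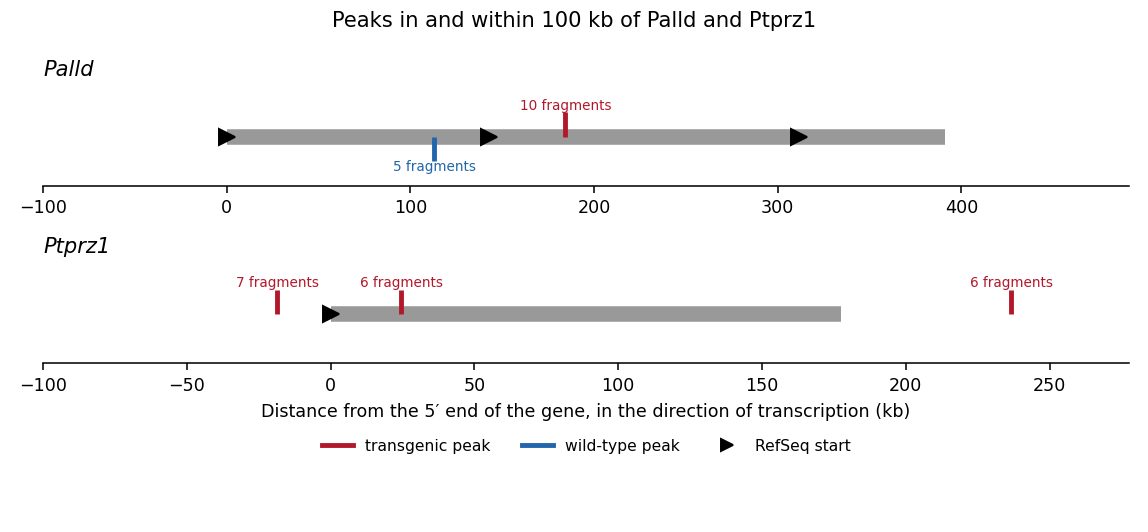
Peaks in and within 100 kb of Palld (top) and Ptprz1 (bottom), drawn in the direction of transcription with distance from the 5′ end of the gene body in kb. Grey bars are gene bodies, arrowheads RefSeq starts, red marks above the bar transgenic peaks and blue marks below it wild-type peaks, with their ChIP fragments. The 10-fragment transgenic peak and the 5-fragment wild-type peak of Palld lie on either side of its second start, and 2 of the 3 transgenic peaks at Ptprz1 lie on either side of its start.

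Ptprz1 encodes a receptor tyrosine phosphatase that carries chondroitin sulphate and binds pleiotrophin, midkine, contactin 1 and tenascins. It spans 178 kb of chromosome 6 (22875315 to 23052916, plus strand). Its transgenic peak lay inside the gene at 22899821 to 22900068, with its centre 24.6 kb from the 5′ end, and rested on 6 fragments (fold 3.34, q 0.238). At least 6 fragments were found under 79.8% of transgenic peaks, so this was an ordinary peak of that list. A stronger one, of 7 fragments (fold 4.34, q 0.0895), lay 18.5 kb upstream of the gene at 22856698 to 22856808, which is outside the 2 kb limit. Another lay 58.9 kb downstream inside Aass, an enzyme of lysine breakdown, with 6 fragments (fold 3.36). The nearest wild-type peak was 1617 kb away. Of 1435 coding genes of 100 to 200 kb, 15.3% had a transgenic and 2.44% a wild-type peak.

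Within 100 kb Ptprz1 therefore had 3 transgenic peaks (95% interval 0.619 to 8.77) and 0 wild-type peaks (0 to 3.69), and chromosome 6 gives 0.961 and 0.0824. As many transgenic peaks within that distance were found at 3.01% of all coding genes, most of which are shorter and so have a narrower window. The interval of the 3 peaks includes the chromosome's number. The start of Ptprz1 lay 18.7 kb from its nearest transgenic peak, where the median coding start lay 274 kb away and 5% of starts lay within 20.5 kb. Its promoter window is shown because transgenic peaks stood on both sides of it. It holds 29 CG dinucleotides, printed in capitals, and 17.3% of coding windows hold as many (plus strand, RefSeq, GRCm38.p6).

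Ptprz1 start 1, chr6:22875252-22875551: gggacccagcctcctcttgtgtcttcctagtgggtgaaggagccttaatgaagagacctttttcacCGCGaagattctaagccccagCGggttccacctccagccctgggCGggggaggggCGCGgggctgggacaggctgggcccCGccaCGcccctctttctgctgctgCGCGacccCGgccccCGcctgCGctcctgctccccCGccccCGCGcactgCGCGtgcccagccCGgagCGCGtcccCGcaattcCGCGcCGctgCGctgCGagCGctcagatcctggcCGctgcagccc

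No promoter window of the 8 genes overlapped a peak in either library. The table gives 15 windows for them, with 2 to 53 CG dinucleotides each. Over all genes, peaks overlapped 0.0582% of 32619 RefSeq promoter windows in the transgenic library, which is 19 windows, and 0.00613% in the wild-type library, which is 2 windows. A lack of peaks at 15 windows was therefore not detectable at these list lengths.

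The other matrix and adhesion members, Tnc and Itgb5, held no peak. Tnc encodes tenascin C, an extracellular matrix glycoprotein of progenitor zones, and spans 87.2 kb of chromosome 4 (63959785 to 64047015, minus strand). Among 2506 coding genes of 50 to 100 kb, 8.14% had a transgenic and 0.878% a wild-type peak. Within 100 kb of Tnc both lists were empty, and the nearest transgenic peak lay 152 kb downstream. Within 500 kb there were 5 transgenic peaks (1.62 to 11.7) and 1 wild-type peak (0.0253 to 5.57), where chromosome density gives 2.26 and 0.333. Of the transgenic peaks, 3 lay together in 33.3 kb downstream of the gene, between Tnfsf15 and Tnfsf8, which encode cytokines of the tumour necrosis factor family. They rested on 7, 9 and 5 fragments, and the middle one had a q of 0.0673. Of all transgenic peaks, 3.61% lay with 2 others in a stretch as short. The other 2 lay upstream of Tnc in the noncoding gene Gm31115, 173 and 214 kb from the gene, in a coding-gene desert of 1077 kb that ends at Pappa, a protease of insulin-like growth factor binding proteins. The wild-type peak lay in the same desert, 495 kb upstream, with 6 fragments (fold 3.85, q 1).

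Itgb5 encodes the beta 5 integrin subunit, which pairs with alpha v to bind vitronectin, and spans 120 kb of chromosome 16 (33829665 to 33949338, plus strand). Its nearest transgenic peak was 294 kb upstream, in Slc12a8, a member of the cation-chloride cotransporter family, with 7 fragments (fold 3.30). Its nearest wild-type peak was 3874 kb away. Within 1 Mb it had 2 transgenic peaks (0.242 to 7.22) and 0 wild-type peaks (0 to 3.69), where its chromosome gives 5.84 and 0.513. Its nearest coding neighbours, Muc13 and Umps, held no peak in either library, and 72.9% of coding genes had at least 2 transgenic peaks within 1 Mb.

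The receptor pair Lifr and Il6st held no peak of their own. Lifr, the leukaemia inhibitory factor receptor, spans 107 kb of chromosome 15 (7090610 to 7197489, plus strand), next to Osmr, the oncostatin M receptor that likewise pairs with gp130. Within 500 kb it had as many wild-type as transgenic peaks, which among the 8 was also so at Fam107a with 1 of each. The counts at Lifr were 2 transgenic peaks (0.242 to 7.22) and 2 wild-type peaks (0.242 to 7.22), and chromosome density gives 2.90 and 0.472. The wild-type peaks lay 74 and 168 kb upstream, between Osmr and Lifr, each with 5 fragments and a q of 1. At least 2 wild-type peaks within 500 kb were found at 3.72% of coding genes. The transgenic peaks were farther off, 499 kb upstream in Fyb, an adaptor of T cell signalling, and 382 kb downstream of the gene, with 6 and 5 fragments. In the transgenic library Lifr had 0 peaks within 100 kb, where its chromosome gives 0.803.

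Il6st, which encodes the shared signalling receptor gp130, spans 42.8 kb of chromosome 13 (112464070 to 112506860, plus strand), between Ankrd55 and the related receptor gene Il31ra. It had 1 transgenic peak within 500 kb (0.0253 to 5.57), 355 kb upstream with 6 fragments, and 2 within 1 Mb (0.242 to 7.22). Its chromosome, at 3.11 transgenic peaks per Mb, gives 3.24 and 6.36. The wild-type list had 0 peaks within 1 Mb of Il6st, where 0.714 are given by density, and the nearest was 1648 kb away. Transgenic counts around Il6st were thus below the mean of its chromosome, inside the interval of each count.

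The intracellular members Fam107a and Hopx are short and held no peak. Of 16589 coding genes under 50 kb, 1.74% had a transgenic and 0.139% a wild-type peak. Fam107a encodes an actin-binding protein induced by stress, and spans 21.3 kb of chromosome 14 (8296270 to 8317607, minus strand). Beside it the libraries came closest to each other: a transgenic peak of 7 fragments at 8433540 to 8433699 (fold 3.88, q 0.132) and a wild-type peak of 5 fragments at 8438277 to 8438382 (fold 3.33, q 1) lay 4.58 kb apart. Both were in Cfap20dc and the overlapping noncoding gene Gm41095, 116 and 121 kb upstream of Fam107a. A transgenic peak lay as near to 6.33% of wild-type peaks. Within 1 Mb Fam107a had 2 transgenic peaks (0.242 to 7.22) and 1 wild-type peak (0.0253 to 5.57), where density gives 5.4 and 0.781.

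Hopx, an atypical homeodomain protein and the most used marker of basal radial glia, spans 28.1 kb of chromosome 5 (77086986 to 77115123, minus strand). Its nearest transgenic peak lay 61.5 kb downstream in Thegl, with 6 fragments (fold 3.52, q 0.216), and its nearest wild-type peak was 1561 kb away. Within 1 Mb it had 6 transgenic peaks (2.20 to 13.1) and 0 wild-type peaks (0 to 3.69), where density gives 4.45 and 0.532. Of the 6, 3 stood within 2.0 kb of each other, 661 to 663 kb downstream of the gene at 76423487 to 76425491, with 7, 5 and 6 fragments. The q values of these 3 were 0.132, 0.363 and 0.238. Such a tight trio was uncommon: 0.144% of transgenic peaks, which is 9 peaks with these 3 included, lay with 2 others in a stretch as short. That length was taken from the trio itself, so its rarity was not tested. The nearest coding gene to the trio was Nmu, which encodes the neuropeptide neuromedin U, 59.7 kb away.

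**Figure D2:**
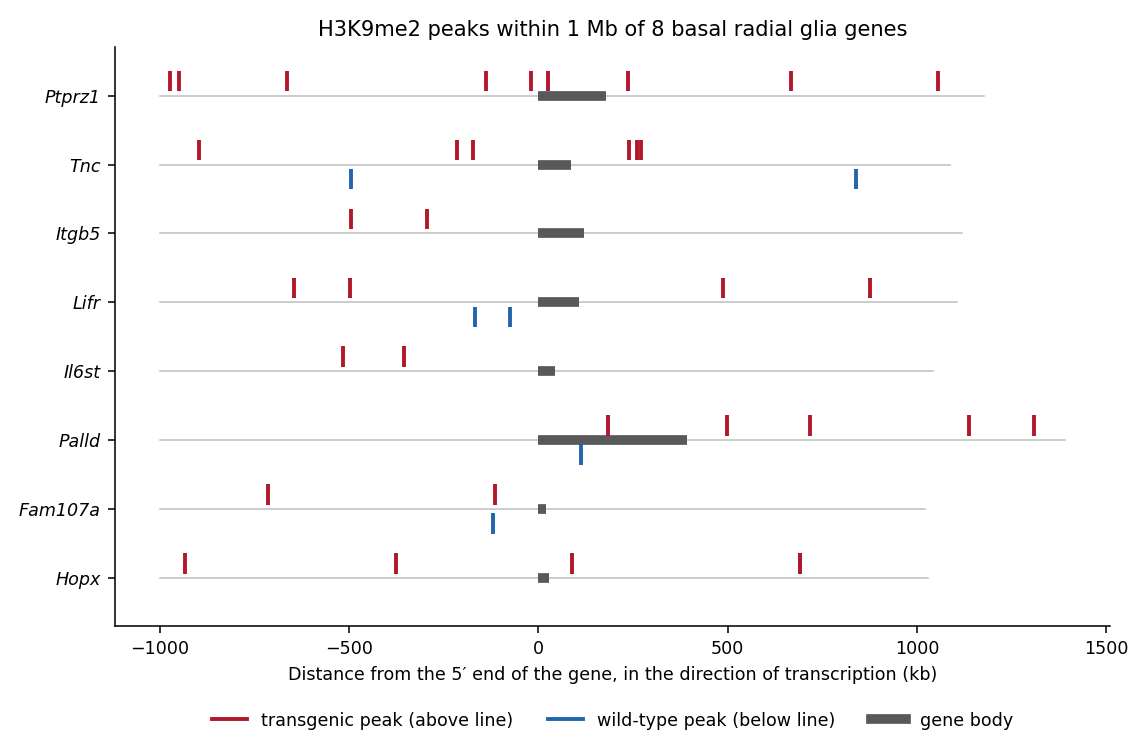
Position of every peak within 1 Mb of the 8 genes, by distance from the 5′ end of the gene body in kb in the direction of transcription. Thick bars are gene bodies, red marks above the line transgenic peaks (36 in all) and blue marks below it wild-type peaks (6 in all). Marks fall inside a gene body only in Palld and Ptprz1, and the 3 clustered peaks downstream of Hopx overlie each other.

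Around the genes a departure of the peak density from that of their chromosomes was not resolved at these counts, least of all in the wild type. Within 100 kb, 3 of the 8 genes had a transgenic peak (Palld, Ptprz1 and Hopx) and 2 had a wild-type peak (Palld and Lifr), against 28.1% and 4.46% of coding genes. Within 500 kb, 8 of 8 had a transgenic peak and 4 a wild-type peak (Tnc, Lifr, Palld and Fam107a), against 69.5% and 18.9%. Within 1 Mb the counts were again 8 and 4, against 85.1% and 34% of coding genes. Of the 5742 coding genes with as few coding neighbours as these (9 to 20 within 1 Mb), 95.7% had a transgenic and 43.5% a wild-type peak within 1 Mb. The genes with a wild-type peak numbered few at each distance, and 1 library cannot tell such counts from their background.

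Summed over the 8 genes, the transgenic library had 5 peaks within 100 kb, 21 within 500 kb and 36 within 1 Mb. These were 0.744 (95% interval 0.242 to 1.74), 0.901 (0.558 to 1.38) and 0.818 (0.573 to 1.13) times the numbers at chromosome density. The wild-type library had 2, 5 and 6 peaks at the same distances, or 2.40 (0.291 to 8.67), 1.73 (0.562 to 4.04) and 1.10 (0.403 to 2.39) times those numbers. Every one of these intervals includes 1. The ratios within 100 kb rest on few genes: without Ptprz1 the transgenic ratio was 0.347, and without Lifr the wild-type ratio was 1.42. In the ring from 500 kb to 1 Mb, which leaves out the nearer peaks, the ratios were 0.724 (0.405 to 1.19) in the transgenic and 0.389 (0.00985 to 2.17) in the wild-type library.

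**Figure D3:**
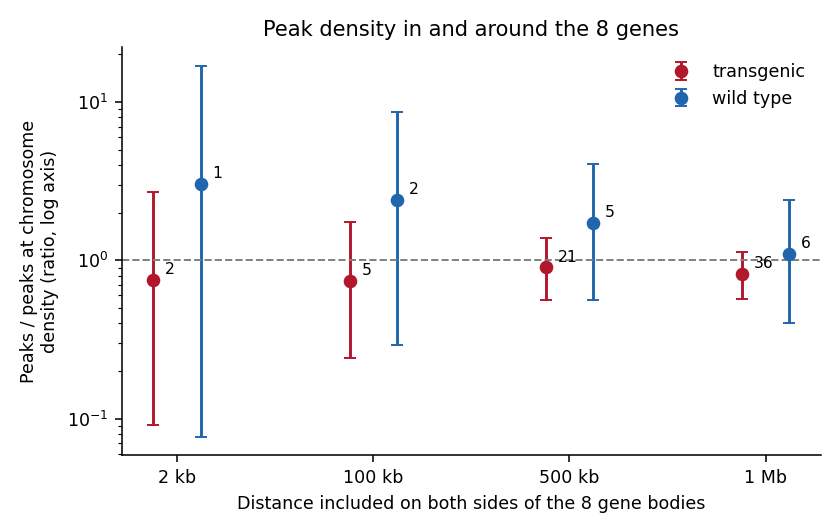
Peaks in and around the 8 genes divided by the number at the mean density of their chromosomes (ratio, log axis), by distance included on both sides of the gene bodies. Points are ratios with exact Poisson 95% intervals, the numbers beside them are peak counts, and the dashed line marks a ratio of 1. Transgenic ratios lie between 0.744 and 0.901 and wild-type ratios between 1.10 and 3.03, and every interval crosses the line.

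By gene, 3 of the 8 had more transgenic peaks within 1 Mb than their chromosome gives, namely Ptprz1 (9 against 5.54), Hopx (6 against 4.45) and Tnc (6 against 4.34). With peaks within 1 kb of each other merged, which counts the Hopx trio as 1, Hopx had 4 against 4.31 and was below that number, leaving Ptprz1 and Tnc above it. The share of coding genes above their chromosome's number was 32.1%. In the wild type 4 were above it, Tnc and Lifr with 2 each and Palld and Fam107a with 1 each, where 33.9% of coding genes were. Wild-type numbers at density ran from 0.475 to 0.909 for the 8 genes, so a single peak puts a gene above its number. These 4 are therefore the same genes that had a wild-type peak within 1 Mb, and add no further result. In order, the transgenic counts within 1 Mb were 9 at Ptprz1, 6 at Tnc and Hopx, 5 at Palld, 4 at Lifr, and 2 at Itgb5, Il6st and Fam107a. The interval of the highest count, 4.12 to 17.1, overlaps that of the lowest, 0.242 to 7.22, so the order of the genes was not resolved at these counts.

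**Figure D4:**
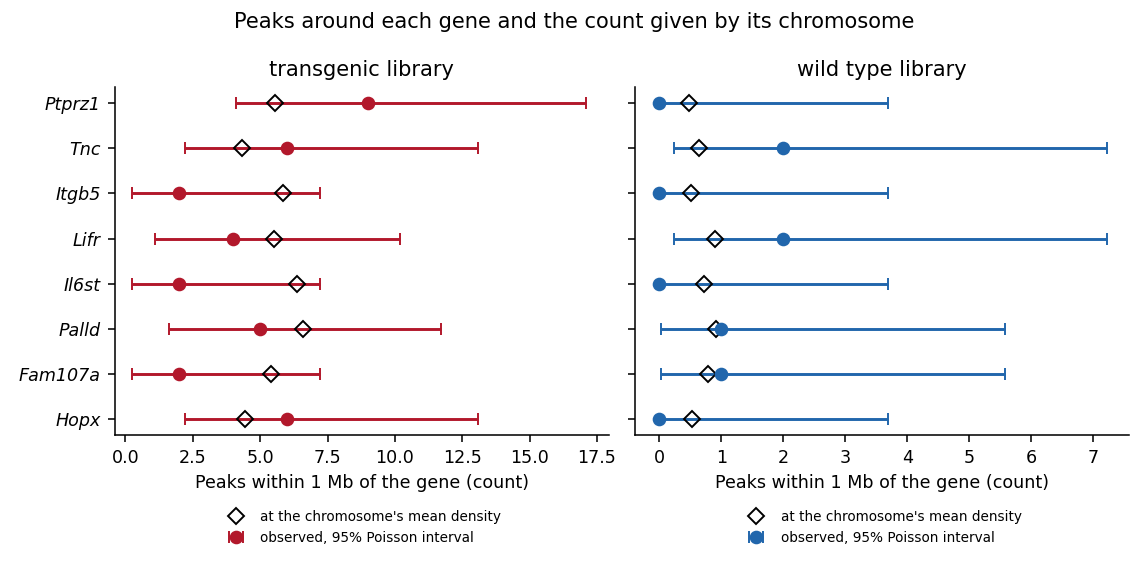
Number of peaks within 1 Mb of each gene in the transgenic (left) and wild-type (right) library. Filled points are observed counts with exact Poisson 95% intervals, and open diamonds are the counts at the mean density of the gene's chromosome. All 16 intervals hold their diamond, from Ptprz1 with 9 transgenic peaks against 5.54 to Il6st with 2 against 6.36.

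The genes lay in regions with fewer coding genes than usual, with 9 (Palld) to 20 (Fam107a) others within 1 Mb and a median of 16, where the median coding gene has 30. Among 5742 coding genes with 9 to 20 such neighbours the median count within 1 Mb was 5 transgenic peaks and 0 wild-type peaks. The 8 genes had medians of 4.5 and 0.5. The ratio of transgenic to wild-type peaks within 1 Mb was 6.0 (2.5 to 17.4), and over the whole lists it was 8.42 (7.80 to 9.09), which lies inside the wider interval. Within 500 kb it was 4.2 (1.54 to 14.3).

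The 36 transgenic peaks within 1 Mb rested on 5 to 10 fragments with a median of 7, where the whole list has a median of 6 and a maximum of 22. Their median fold was 3.69, against 3.62, and 11 of them, or 30.6%, had a q of 0.1 or less, against 23.1%, while their median q of 0.168 was that of the list. Within 500 kb the 21 transgenic peaks had a median fold of 3.52 and a median q of 0.212, both weaker than the list's. Their median of 7 fragments, and the 6 of them (28.6%) with a q of 0.1 or less, were above the list's. At least 7 fragments were found under 58.3% of the 36, against 48.7% of the list, and at least 8 under 27.8%, against 21.9%. At least 9 were found under 6 of the 36, or 16.7%, against 6.94% of the list, and these differences were not tested. The 2 with 10 fragments were that of Palld and one in Cped1, 663 kb upstream of Ptprz1. The 6 wild-type peaks rested on 5 to 7 fragments with a median of 5, and each had a q of 1, where the whole list has a median of 6 and a maximum of 12. Of the 21 transgenic peaks within 500 kb, 2 lay inside the genes, 10 upstream and 9 downstream. Of the 5 wild-type peaks, 1 lay inside and 4 upstream.

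**Figure D5:**
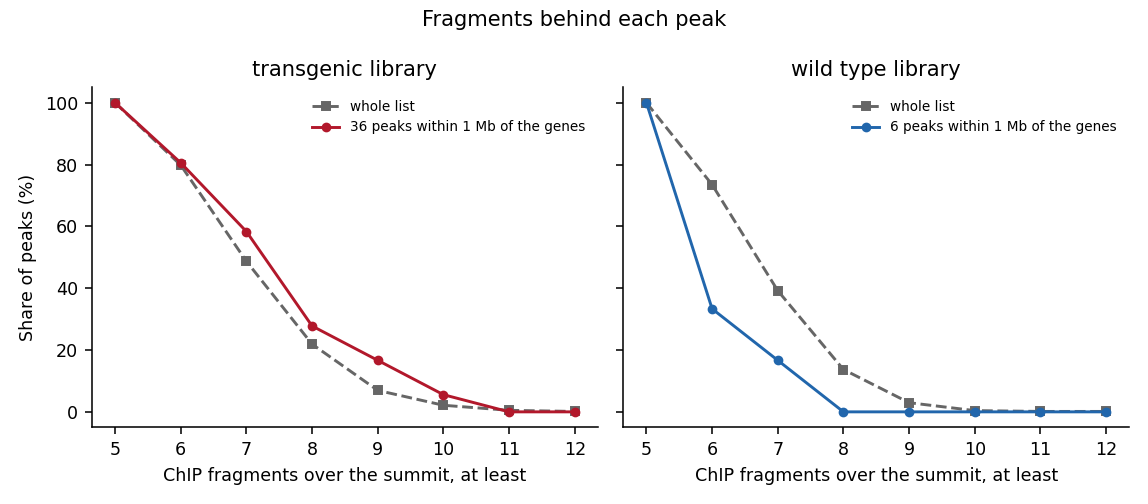
Share of peaks (%) resting on at least the given number of ChIP fragments, for peaks within 1 Mb of the 8 genes (coloured circles) and for the whole list (grey squares), in the transgenic (left, 36 peaks) and wild-type (right, 6 peaks) library. The red points lie above the grey ones from 6 to 10 fragments (80.6% against 79.8% at 6 or more, 16.7% against 6.94% at 9 or more). The 6 wild-type peaks lie at the low end of their list, with at most 7 fragments.

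Genes that work with the 8 were looked up in 6 lists of 91 genes in all. Of these, 8 had a transgenic peak, or 8.79% against 5.68% of coding genes, and 2 had a wild-type peak, or 2.20% against 0.911%. These shares were not matched for gene length. List medians ran from 11 kb (LIF receptor signalling) to 77.3 kb, with Ptprg alone at 689 kb, against 17.4 kb for coding genes. Of coding genes of 50 to 100 kb, 8.14% had a transgenic and 0.878% a wild-type peak. Among 15 other basal radial glia and basal progenitor genes, such as Moxd1, Slc1a3 and Gli3, 0 had a peak in either library, where density gives 3.15 transgenic and 0.389 wild-type peaks. Among 21 genes of LIF receptor signalling, from ligands such as Lif and Cntf to Jak1, Stat3 and Socs3, 0 had a peak in either, where density gives 1.59 and 0.211. Among 15 relatives and actin partners of palladin, FAM107A and HOPX, such as Mypn and Actn1, 0 had a peak, where density gives 3.83 and 0.46. A count of 0 has an upper 95% limit of 3.69, and of these 6 numbers 3.83 alone lies slightly above it. As 1 of 6 comparisons, on lists chosen with earlier results of these data known, it does not establish a lack of peaks. Chromosome density is also a high baseline for coding genes: within 1 Mb, 32.1% of them had more transgenic peaks than it gives.

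The list of 17 PTPRZ1 and tenascin partners held most peaks of the 6 lists. A transgenic peak was found in 4 of them, or 23.5% against 5.68% of coding genes, and a wild-type peak in 1, or 5.88% against 0.911%. There were 9 transgenic peaks (4.12 to 17.1) and 1 wild-type peak (0.0253 to 5.57), where density gives 4.81 and 0.566, and both intervals include these numbers. Of the 4 genes, Cntn1, Tnr and Nrcam belong to the 200 to 500 kb class, of which 41.9% had a transgenic peak. Cntn1, the contactin that PTPRZ1 binds, held 4 transgenic peaks in 291 kb, where density gives 0.771, with a top fold of 4.29 and a lowest q of 0.0873, and 0 wild-type peaks. Tnr, which encodes tenascin R, held 2 transgenic peaks and the list's wild-type peak, where density gives 1.11 and 0.0921. Tnn, the tenascin gene next to it, held 2 transgenic peaks in 68.7 kb, where density gives 0.195, with 9 fragments under the larger. The intervals for Cntn1 (1.09 to 10.2) and Tnn (0.242 to 7.22) lie above the numbers at density. Both genes were named for their peaks out of 91 looked up, on lists chosen with earlier results known. Their counts therefore do not establish an excess, which was not tested. Nrcam, a neuronal adhesion gene, held 1. Ligands Ptn and Mdk held 0 in either library. The median length of the list was 67.8 kb, above that of coding genes.

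Of 22 integrin subunits and ligands, 3 had a transgenic peak, or 13.6% against 5.68% of coding genes, and 0 a wild-type peak, against 0.911%. Their median length was 55.2 kb, and of coding genes of 50 to 100 kb 8.14% had a transgenic peak. The 22 genes held 4 transgenic peaks in all (1.09 to 10.2), where density gives 4.33, and density gives 0.557 wild-type peaks. Itga2 held 2 and the adjacent Itga1 held 1, both collagen receptor subunits, and Itgb6, which like Itgb5 pairs with alpha v, held 1 of 5 fragments (fold 2.94). Itgav itself held 0 in either. Ptprg, the closest relative of Ptprz1, held 3 transgenic peaks and 1 wild-type peak over 689 kb, where density gives 1.85 and 0.268.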

How the data were processed

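H3K9me2 peaks of 1 transgenic and 1 wild-type library were used, grouped by the genotype label. Peaks had been called by the authors with MACS 2.1.0.20150420, per the file headers, in each library against its own input, at a p cutoff of 0.001, without a shift model and with a fragment extension of 111 bp (transgenic) and 57 bp (wild type). The submitters' processing notes name BWA and mm10. Extension and depth affect which maxima are called, so list lengths do not compare amounts of the mark. The deposited pileup signal is in fragments scaled to the smaller of ChIP and input. Dividing by the scale (1 and 0.951) gave whole fragments within 0.02 for 100% of peaks. The deposited fold is the ratio of pileup plus 1 to local background plus 1. The −log10 p and −log10 q are the authors' values, and the headers say that q was not calculated although values are listed. No peak had a q of 0.05 or less.

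Overlaps of at least 1 bp were counted with Python 3.11.15, on RefSeq genes of chromosomes 1 to 19 and X (GRCm38.p6). Genes that start under 3 Mb were left out (340). Chromosome density is peaks over the span from 3 Mb to the last gene or peak. Intervals are exact Poisson (ratios of libraries, exact binomial) at 95%. Counting was tested on simulated data. Members, lists and alternatives were chosen with earlier results of these data known. Genes named were the members, coding genes holding a peak within 500 kb, neighbours, and up to 4 hits per list. Peak-free list members, the Tnc and Hopx trios, the Fam107a pair, genes at peaks beyond 500 kb and genes nearest to intergenic peaks were named after their values were seen. No genome sequence was used, so sequences under peaks and exons or introns were not analysed here.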

Additional observations from a re-analysis of the deposited data

How the results depend on the processing

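With peaks of 5 to 22 fragments and 1 library per genotype, depth and the call's settings limit these counts, and no library could be left out. No paired analysis was possible because each genotype had 1 library. Of 36 alternatives to the density ratios 27 stayed within the counting interval, and of 22 alternatives to the counts 12 stayed within 1.5 times. No flank, a 10 kb flank and merging within 1 kb were among those that stayed for each count, and autosome density, windows around the gene midpoint, merging and leaving out the gene with most peaks were for each ratio. A fold of at least 5, which left 166 transgenic and 62 wild-type peaks, gave 0 for each count and each ratio in both libraries. The Palld transgenic peak, of fold 4.96, fell just under it. A −log10 p of at least 5, which left 2036 transgenic and 185 wild-type peaks, gave 1 transgenic and 0 wild-type peaks in the 8 genes, 5 transgenic and 0 wild-type genes of the related lists, and a wild-type ratio of 0 at 100 kb, 500 kb and 1 Mb. The transgenic list cut to 743 peaks of lowest q gave 1 peak in the 8 genes and 3 genes of the related lists. Values of q are tied, as at Nrcam and Itga2 with a lowest q of 0.0742. Thus q alone does not set which peaks the cut keeps. Each shortened list holds fewer peaks, and whether that alone lowers the counts was not tested.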
